A study of Mus musculus with 6 samples.

Results

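The genes described here encode CD40 and the costimulatory or checkpoint ligands that a B cell shows to T cells. They are Cd40, Cd80, Cd86, Cd83, Cd274 (PD-L1), Pdcd1lg2 (PD-L2) and Icosl, 7 genes chosen by name. The choice was made with earlier results of these data known. Every probe annotated with one of these symbols was taken. Of the 7 genes, 6 had a probe, 9 probes in all, among 25697 probes on the arrays. No probe carried the symbol Icosl, the ligand of ICOS, and it was not analysed here. All 6 measured genes lay above the 40th percentile of every array, so none passed the filter on dim probes through 1 group alone, and they were tested among 10304 genes.

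The data are 6 Illumina bead arrays of 1 colour, each with RNA of B cells from mouse spleen. The control group held 3 samples of normal B cells, and the TRAF3KO group held 3 samples of B cells labelled TRAF3-/- and premalignant. Strain, age, sex, the promoter that drove any deletion, the part of Traf3 removed and whether each array held 1 animal are not stated in the labels. The p-values therefore reflect only how far these arrays differ, which may be technical variation. Levels are log2 intensities as deposited, and a difference is TRAF3KO minus control on that scale. Traf3 was not analysed here, since no probe carried its symbol, and the knockout could not be checked on these arrays.

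CD40 is a receptor of the TNF receptor family. When CD40 ligand on a helper T cell binds it, its cytoplasmic tail recruits TRAF adaptor proteins, and both the canonical and the non-canonical NF-kB pathways are switched on. TRAF3 is one of those adaptors and, at rest, keeps the kinase NIK scarce, which holds the non-canonical pathway down. CD80 and CD86 bind CD28, which costimulates T cells, and CTLA-4, which restrains them, while PD-L1 and PD-L2 bind the inhibitory receptor PD-1. CD83 is a surface protein of activated B cells and dendritic cells that protects MHC class II and CD86 from removal by the ubiquitin ligase MARCH1.

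The stretch around the start of transcription is shown for the 3 called genes that RefSeq's promoter table holds. CD40 switches on NF-kB, so the windows were searched for the consensus of NF-kB sites, as a description of the sequence. Whether NF-kB has a part in the differences of these genes was not tested. Each window runs from 250 bases before to 50 bases after a start site on build GRCm38.p6, on the plus strand, and capitals mark a match to the NF-kB consensus, which was searched on both strands. The windows are Pdcd1lg2 at chr19:29410669-29410968, Cd274 at chr19:29367188-29367487 and Cd80 at chr16:38458683-38458982.
Pdcd1lg2: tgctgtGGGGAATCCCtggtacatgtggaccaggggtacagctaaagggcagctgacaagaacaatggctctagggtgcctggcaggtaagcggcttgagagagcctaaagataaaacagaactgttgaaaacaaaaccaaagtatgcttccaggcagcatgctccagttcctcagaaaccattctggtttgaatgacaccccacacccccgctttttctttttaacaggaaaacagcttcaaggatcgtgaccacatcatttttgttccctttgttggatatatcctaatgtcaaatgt
Cd274: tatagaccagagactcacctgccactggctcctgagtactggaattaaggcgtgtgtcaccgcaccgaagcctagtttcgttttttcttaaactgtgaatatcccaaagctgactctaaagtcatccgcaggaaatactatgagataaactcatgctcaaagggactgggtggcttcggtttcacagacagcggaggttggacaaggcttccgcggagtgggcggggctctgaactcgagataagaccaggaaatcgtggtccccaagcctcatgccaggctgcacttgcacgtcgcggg
Cd80: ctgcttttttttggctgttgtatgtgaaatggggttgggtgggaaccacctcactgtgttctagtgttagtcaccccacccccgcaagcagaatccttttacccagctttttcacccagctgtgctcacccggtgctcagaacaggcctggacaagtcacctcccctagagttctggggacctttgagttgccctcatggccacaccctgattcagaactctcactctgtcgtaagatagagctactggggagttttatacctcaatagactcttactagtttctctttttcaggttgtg
The Pdcd1lg2 window held 1 match, GGGGAATCCC, which reads as a match on both strands and lies at positions -244.0 to -235.0 from the start site. The Cd274 and Cd80 windows held none, which says only that these letters are not in these windows. Of all 32851 windows of the same length, 8.46% held a match. A match is a description of the sequence and does not show binding. Cd40, Cd86 and Cd83 have no entry in that table. Icosl, which no probe measured, has a window there that also held 1 match, at positions -111 to -102 from its start site.

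In the TRAF3KO cells 4 of the 6 measured genes rose and none fell. Cd80 rose most, by 2.92-fold, followed by Pdcd1lg2 at 1.98-fold, Cd40 at 1.68-fold and Cd274 at 1.61-fold. Cd83 and Cd86 did not pass the test, at 1.25-fold and 0.960-fold. A gene is called here when its adjusted p from limma is under 0.05, and by that rule 2.30% of all tested genes were called higher and 2.14% lower, 4.44% in either direction. In 5 of the 6 genes every TRAF3KO array lay above every control array, against 11.0% of all tested genes, and groups that did not overlap in either direction made up 22.4% of them. The median difference of the 6 genes was 0.72, beside 0.00 (0.00420) over all tested genes. Since the genes were chosen with earlier results of these data known, these counts are not independent evidence of a direction.

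Cd40, the receptor itself, was measured by 2 probes. The brighter probe, designed on transcript NM_170702.2, read 13.19, 13.05 and 13.04 in control replicates 1, 2 and 3 and 13.76, 13.72 and 14.04 in TRAF3KO replicates 1, 2 and 3. The groups were well apart, and TRAF3KO replicate 3 was the highest. Cd40 thus rose from 13.09 ± 0.09 to 13.84 ± 0.17 (SD, n = 3), a difference of 0.75 ± 0.09 (SE, 95% interval 0.55 to 0.95, limma adjusted p = 0.000989). The dimmer probe, designed on transcript NM_170704.1, read 12.18, 12.26 and 12.31 in the controls and 12.85, 12.49 and 13.09 in TRAF3KO. It put the same TRAF3KO array highest, and its groups did not overlap either. Its difference was 0.56 ± 0.13 (SE, adjusted p = 0.0323), and the interval of each probe held the other's estimate. Cd40 was called without any 1 of the 6 arrays.

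Cd80, the first of the CD28 ligands, had 1 probe, at a low level. It read 5.56, 6.40 and 6.09 in the controls, which are intensities of 47.1, 84.7 and 68.2. In TRAF3KO it read 7.57, 7.58 and 7.55, intensities of 189.7, 191.0 and 187.0. The controls were widely spread, whereas the 3 TRAF3KO arrays were almost equal. Cd80 rose from 6.02 ± 0.43 to 7.56 ± 0.02 (SD, n = 3), by 1.55 ± 0.29 (SE, 95% interval 0.92 to 2.18, adjusted p = 0.0125). Its call was lost without TRAF3KO replicate 1 (adjusted p = 0.0562) and without TRAF3KO replicate 2 (0.0633), while the difference hardly moved (1.54 in both).

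Cd86, the other CD28 ligand, had 3 probes, none of them called. The brightest read 11.42, 11.39 and 11.61 in the controls and 11.49, 11.46 and 11.30 in TRAF3KO, so that the groups overlapped. The difference was -0.06 ± 0.09 (SE, adjusted p = 0.804), and the 95% interval of -0.26 to 0.14 did not reach the size of the Cd80 difference in either direction. The other 2 probes gave -0.07 ± 0.10 and -0.18 ± 0.12 (adjusted p = 0.770 and 0.512). Their levels were 10.94 ± 0.13 and 10.08 ± 0.15 in the controls and 10.87 ± 0.08 and 9.90 ± 0.14 in TRAF3KO (SD, n = 3).

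Whether the CD28 ligands differed in their response was tested on the ratio of Cd80 to Cd86 within each array. This log2 ratio ran from -5.86 to -4.98 in the controls and from -3.92 to -3.75 in TRAF3KO. The shift was 1.60, and the groups did not overlap. A two-sided exact permutation test over the 20 splits of 3 against 3 arrays gave p = 0.10, the smallest it can give, and 0.20 adjusted over the 2 pairs of ligands tested. The level of one probe is not comparable with that of another, so the ratio carries meaning only as a shift between groups.

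Cd83 lay just short of a call. It read 12.97, 13.07 and 13.30 in the controls and 13.47, 13.50 and 13.32 in TRAF3KO. The lowest TRAF3KO array was only slightly above the highest control array. The difference was 0.32 ± 0.09 (SE, 95% interval 0.12 to 0.51, adjusted p = 0.0870). It passed only without control replicate 3 (0.41, adjusted p = 0.0364), of the 19 other ways of fitting tried.

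Cd274 and Pdcd1lg2 encode the PD-1 ligands and each had 1 probe. Cd274 read 10.50, 10.44 and 11.02 in the controls and 11.63, 11.12 and 11.26 in TRAF3KO. Control replicate 3 came close to TRAF3KO replicate 2, and the groups did not overlap. Cd274 rose from 10.65 ± 0.32 to 11.34 ± 0.26 (SD, n = 3), by 0.69 ± 0.17 (SE, 95% interval 0.32 to 1.05, adjusted p = 0.0444). Pdcd1lg2 read 7.17, 7.11 and 7.90 in the controls and 8.39, 8.31 and 8.43 in TRAF3KO. Here too control replicate 3 was the highest control, and the TRAF3KO arrays lay close together. Pdcd1lg2 rose from 7.39 ± 0.44 to 8.38 ± 0.06 (SD, n = 3), by 0.99 ± 0.23 (SE, 95% interval 0.49 to 1.49, adjusted p = 0.0362).

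Both PD-1 ligand calls depended on single arrays. Each was kept when control replicate 3 was left out (adjusted p = 0.0157 for Cd274 and 0.0110 for Pdcd1lg2) and was lost without any other single array, with adjusted p up to 0.184 for Cd274 and 0.145 for Pdcd1lg2. The Pdcd1lg2 to Cd274 ratio shifted by 0.30, with groups that overlapped (-3.33 to -3.12 in the controls, -3.24 to -2.81 in TRAF3KO; two-sided exact permutation p = 0.20, adjusted p = 0.20). Since this test cannot go below 0.10 with 3 arrays a group, it does not settle whether the PD-1 ligands differed in their response.

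**Figure D1:**
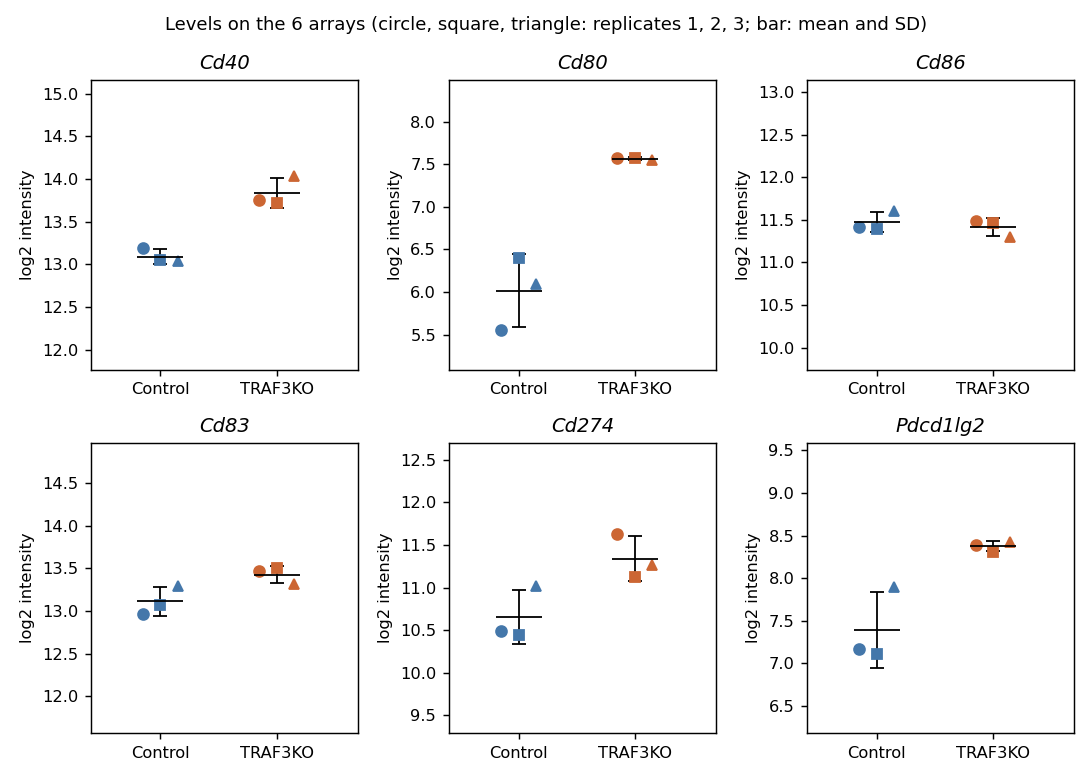
Log2 intensity of the brightest probe of each gene (vertical axes, each spanning the same range) on the 3 control and 3 TRAF3KO arrays, with the group mean and SD as bars. Every TRAF3KO point lies above every control point for Cd40, Cd80, Cd83, Cd274 and Pdcd1lg2, while the groups overlap for Cd86.

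**Figure D2:**
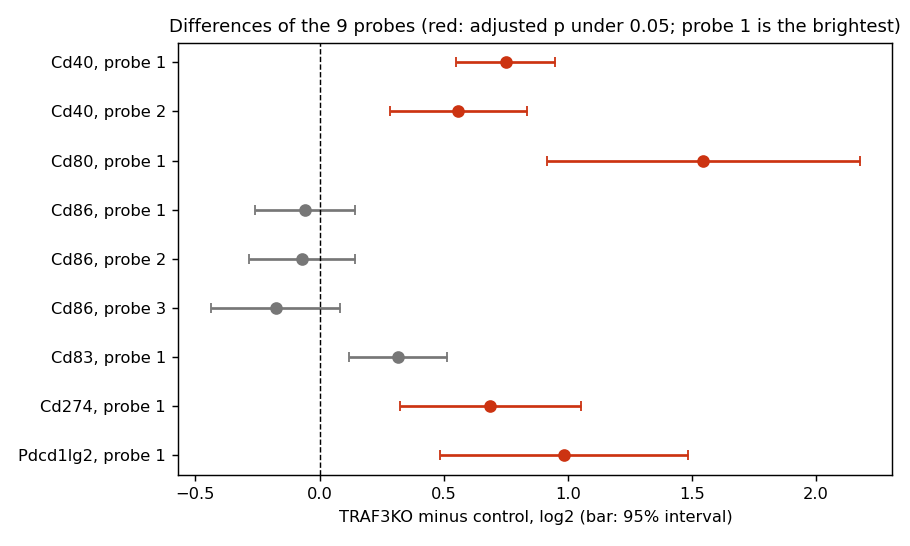
Difference between TRAF3KO and control (log2, horizontal axis) with its 95% interval for each of the 9 probes, red where the adjusted p is under 0.05. Both Cd40 probes, 0.75 and 0.56, lie to the right of 0, and the intervals of all 3 Cd86 probes include 0.

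The arrays differed among themselves in ways that touch these genes. Of the 6 genes, 4 were highest among the controls on control replicate 3, namely Cd86, Cd83, Cd274 and Pdcd1lg2, with deviations from the control mean of 0.14, 0.18, 0.37 and 0.51. Control replicate 2 stood apart from the others on the second principal component over all kept probes, at -90.7, and without it Cd40 and Cd80 were called (differences 0.73 and 1.74, adjusted p = 0.00664 and 0.0128) while Cd274 and Pdcd1lg2 were not. The labels give no sex. The levels of Xist and Eif2s3y marked TRAF3KO replicate 1 and control replicates 1 and 3 as male. With this inferred sex as a block Cd40, Cd80 and Cd274 were called (adjusted p = 0.00390, 0.0355 and 0.0136) and Pdcd1lg2 was not (difference 1.06, adjusted p = 0.0515). No labelled batch was available to split the arrays by.

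The 4 calls also depended on the filter and on the variance model. With no filter on dim probes, without a trend of the variance with intensity, or without moderation of the variance, 0 of the 6 genes were called. In each of those 3 fits, as in the planned one, 5 of the 6 genes had an unadjusted p under 0.05, all higher in TRAF3KO. Over all tested genes that share was 8.35% in the planned fit and 5.63%, 6.81% and 6.88% in those 3. The differences themselves are the same in those 3 fits, and the lowest adjusted p was 0.0818 for Cd40 and 0.0895 for Cd80.

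**Figure D3:**
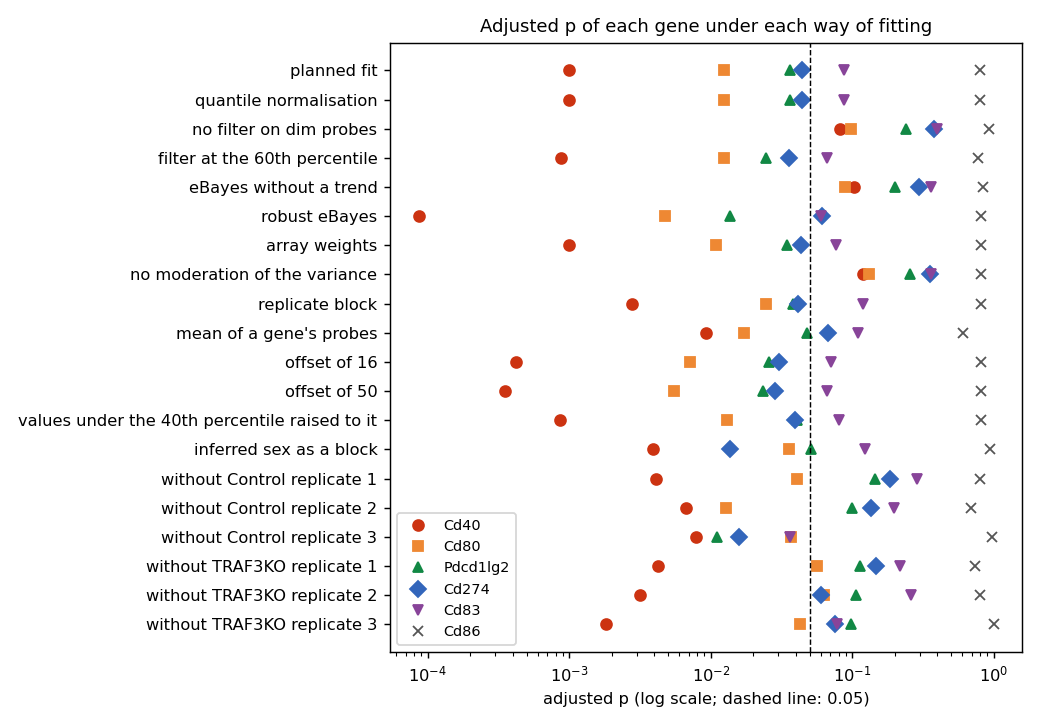
Adjusted p (horizontal axis, log scale) of each of the 6 genes in the planned fit and in each of 19 alternatives (vertical axis), with the threshold of 0.05 dashed. Cd40 lies below the threshold in all but 3 rows, Cd80 in all but 5, and Cd86 lies above it in every row.

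The other genes of the pathway were read in 8 lists that together held 84 genes, 65 of them tested. Of these, 11 were called higher and 2 lower, beside 2.30% and 2.14% of all tested genes. CD40 signalling components made up most of the higher calls, with 7 of 17 tested members higher, 0 lower and a median difference of 0.57. Nfkb2, which encodes the NF-kB precursor p100, rose by 1.74 ± 0.18 (SE, adjusted p = 0.000491) and Traf1, an adaptor that is itself induced through CD40, by 1.50 ± 0.09 (adjusted p = 9.43e-06). Tank, a TRAF-binding protein, rose from 12.05 ± 0.12 to 13.08 ± 0.16 (SD, n = 3; difference 1.04 ± 0.09, adjusted p = 0.000175), and Birc3, the ubiquitin ligase cIAP2, by 0.83 ± 0.18 (adjusted p = 0.0260). The call of Birc3 was lost in 5 of the 6 fits without 1 array and in the fit blocked on inferred sex.

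Genes that B cells raise after CD40 ligation had 2 of 9 tested members called higher and 0 lower, with a median difference of 0.34. Called were Lta, a lymphotoxin, at 1.65 ± 0.20 (SE, adjusted p = 0.000928), and Ebi3, a cytokine subunit, at 1.01 ± 0.11 (adjusted p = 0.000596). In 4 of the 9 every TRAF3KO array lay above every control array, against 11.0% of all tested genes. In 2 every TRAF3KO array lay below, Il2ra at -0.58 ± 0.39 (adjusted p = 0.514) and Bcl2l1 at -0.26 ± 0.18 (adjusted p = 0.549). Groups apart in either direction made up 22.4% of all tested genes. Companions of Cd80 and Pdcd1lg2 on memory B cells and B-1 cells had 2 of 7 called higher and 0 lower (median 0.59), beside 2.30% and 2.14% of all tested genes. Il9r, an interleukin receptor, rose by 4.63 ± 0.23 (adjusted p = 2.43e-06) and Cd9, a tetraspanin, from 10.58 ± 0.33 to 11.27 ± 0.20 (SD, n = 3; difference 0.70 ± 0.16, adjusted p = 0.0320). The call of Cd9 was lost in 4 of the 6 fits without 1 array and when sex was blocked. These lists were chosen with earlier results of these samples known, so their counts are not independent evidence of a direction.

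Among genes that set how long CD86 and PD-L1 proteins last, 1 of 3 tested was called lower and 0 higher, beside 2.14% and 2.30% of all tested genes. Marchf1, the ubiquitin ligase that removes CD86 and MHC class II from the surface of B cells, read 12.42, 12.42 and 12.52 in the controls and 12.15, 12.14 and 12.14 in TRAF3KO. The groups were apart and the TRAF3KO arrays nearly equal, and Marchf1 fell by 0.31 (SE 0.07, adjusted p = 0.0301). Leaving out any single array ended that call, and so did blocking on inferred sex. Protein levels were not measured.

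The lists of receptors and of other ligands held 1 called gene, beside 4.44% of all tested genes called in either direction. Among the receptors that bind these ligands, CD40 ligand and Rgmb, 0 of 5 tested genes were called by limma and 0 had an unadjusted p under 0.05, also by the linear model without moderation. Cd28 differed by 1.69 ± 0.88 (SE, adjusted p = 0.387) and Ctla4 by 0.60 ± 0.41 (adjusted p = 0.526), both with overlapping groups, and Cd40lg did not pass the filter on dim probes. In the list of other B7 family and co-inhibitory genes 0 of 8 were called (0 at an unadjusted p under 0.05 by limma and 1 by the linear model without moderation). Ceacam1 stood at -0.40 ± 0.19 (adjusted p = 0.344) and Cd276, or B7-H3, at -1.53 ± 0.81 (adjusted p = 0.398). Every TRAF3KO array lay below every control array in these 2 of the 8 and above in 0. Groups apart in either direction made up 22.4% of all tested genes. TNF family costimulatory genes had 0 of 9 called (0 unadjusted by either), with Tnfsf14, or LIGHT, at 2.12 ± 1.29 and Tnfsf8, or CD30 ligand, at 2.23 ± 1.40 (adjusted p = 0.465 and 0.478), each at the floor on 1 control array. Of 7 SLAM family and adhesion genes 1 was lower and 0 higher. By limma 4 had an unadjusted p under 0.05, 2 of them higher, against 16.9% of all tested genes in either direction. By the linear model without moderation 2 had such a p. Every TRAF3KO array lay above every control array in 2 of the 7 and below in 2. Cd84 lay just short of a call at -0.31 ± 0.08 (SE, adjusted p = 0.0518). Icam2, a ligand of the integrin LFA-1, fell by 0.59 (SE 0.10, adjusted p = 0.00641), from 12.69 ± 0.11 to 12.11 ± 0.17 (SD, n = 3). The median differences of these 4 lists were 0.82, -0.10, -0.00 (-0.00170) and 0.05.

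**Figure D4:**
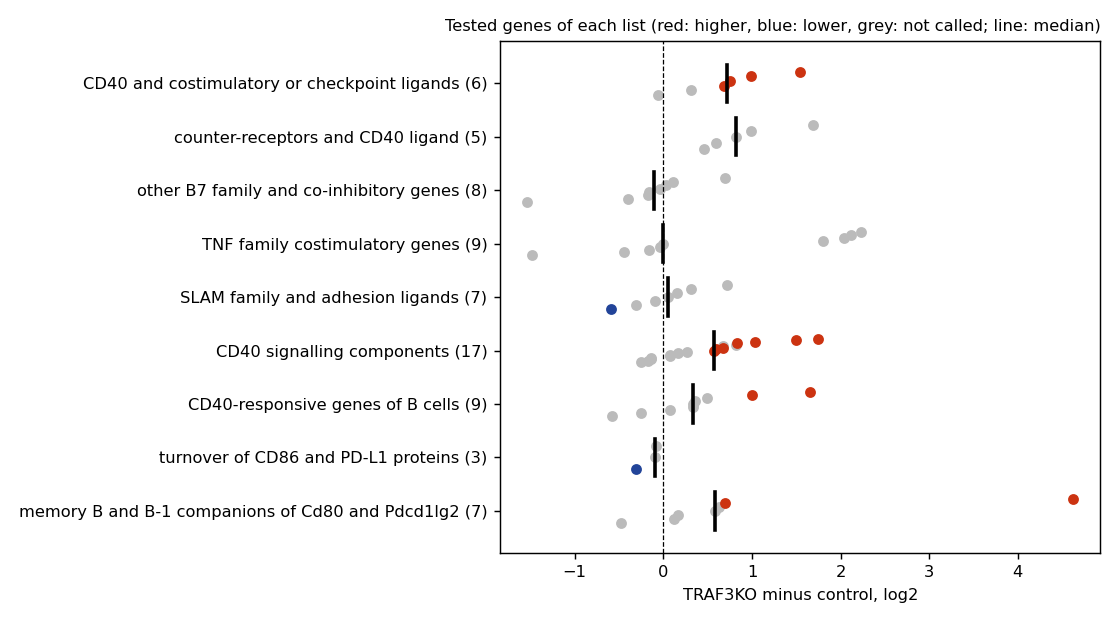
Difference between TRAF3KO and control (log2, horizontal axis) of each tested gene of CD40 and its ligands and of the 8 pathway lists, with the number tested in brackets and the median as a line. Red points, called higher, are 4 of 6 in the first row and 7 of 17 among CD40 signalling components, and the only blue points, called lower, are Icam2 and Marchf1.

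Cd274 and Pdcd1lg2 lie next to each other on chromosome 19 among the tested genes, in RefSeq's order on GRCm38.p6. Whether the genes around them differed too was read from the 4 nearest tested genes on each side. None of these 8 was called by limma, and 3 had an unadjusted p under 0.05, all 3 higher. Of all tested genes 8.35% were higher at that unadjusted threshold, and 16.9% passed it in either direction. By the linear model without moderation 0 were called and 1 had such a p. Jak2, a kinase of cytokine receptors, read 11.91, 11.91 and 12.10 in the controls and 12.35, 12.25 and 12.23 in TRAF3KO, with groups that did not overlap and a difference of 0.30 ± 0.08 (SE, adjusted p = 0.0670). Plgrkt, a plasminogen receptor and the nearest tested gene before Cd274, differed by 0.18 ± 0.07 (adjusted p = 0.236) and Rcl1, which serves ribosomal RNA processing, by 0.27 ± 0.12 (adjusted p = 0.285). Insl6 (0.00, or 0.00388), Ranbp6 (0.04), Uhrf2 (-0.10) and Gldc (-0.01) differed by little, and Il33, a cytokine, by -2.24 ± 1.33 (SE), with TRAF3KO arrays at 6.15, 3.64 and 0.

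**Figure D5:**
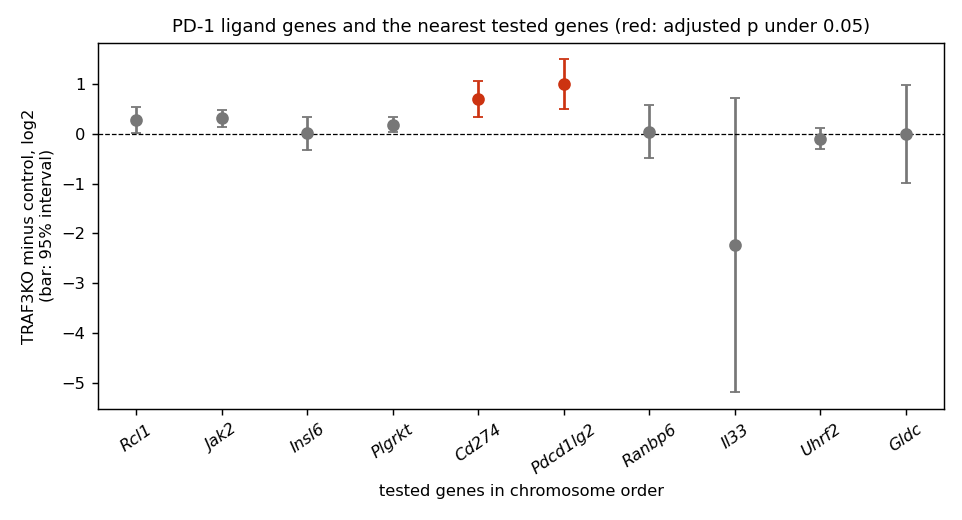
Difference between TRAF3KO and control (log2, vertical axis) with its 95% interval for Cd274, Pdcd1lg2 and the 4 nearest tested genes on each side, in chromosome order but not to scale. The PD-1 ligand genes, at 0.69 and 0.99, are the 2 red points, and none of the 8 neighbours was called.

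The genes whose levels ran most like each called gene over the 6 arrays were found by Pearson's r among genes with a mean level of at least 8 (5673 or 5674 genes). This is a description over 6 arrays that share the group difference, and with so many genes compared high values arise easily. For Cd40 they were Grap, an adaptor protein of lymphocytes (r = 0.994, difference 1.02 ± 0.10, adjusted p = 0.000331), and Vwa5a (r = 0.993, 0.60 ± 0.16, adjusted p = 0.0594). For Cd80 they were Ipo4, a nuclear import receptor (r = 0.992, 0.52 ± 0.12, adjusted p = 0.0396), and Pus7, a pseudouridine synthase (r = 0.992, 0.77 ± 0.17, adjusted p = 0.0333). Cd274 ran most like Hk2, a hexokinase (r = 0.990, 0.83 ± 0.24, adjusted p = 0.0882), and Pex7, a peroxisomal import receptor (r = 0.986, 0.23 ± 0.11, adjusted p = 0.353). Pdcd1lg2 ran most like Il27ra, a cytokine receptor subunit (r = 0.987, 0.40 ± 0.10, adjusted p = 0.0443), and Zc3h7a (r = 0.985, 0.29 ± 0.09, adjusted p = 0.108). All 8 had positive differences, of which Grap, Ipo4, Pus7 and Il27ra were called. Grap kept its call without any 1 array, whereas Ipo4, Pus7 and Il27ra each lost theirs in 5 of those 6 fits and when sex was blocked, and Ipo4 also when the replicate number was.

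Dendritic cells and macrophages also carry these ligands, so markers of other cells were read beside them. Intensities summed over the 11 dendritic cell markers with a probe were 24672 to 27502 in the controls and 17012 to 18935 in TRAF3KO, and most of that sum was Cst3, which fell by 0.62 (SE 0.08, adjusted p = 0.00126). Of the 7 tested, 5 had a positive difference (median 0.02), among them Bst2 at 0.86 ± 0.37 (adjusted p = 0.284) and Flt3 at 0.64 ± 0.83 (adjusted p = 0.760), while Ccr7 stood at -0.42 ± 0.17 (adjusted p = 0.256). Clec9a read 0 in every control and 0, 5.79 and 2.49 in TRAF3KO, and Cd209a read 0 on 5 of the 6 arrays. Xcr1 and Siglech lay above the 40th percentile on all 6 arrays. Their differences were 0.02 ± 0.50 and 0.01 ± 0.40 (SE, adjusted p = 0.992 and 0.994). Zbtb46 read 0 in every control and 6.35, 6.51 and 7.02 in TRAF3KO. It passed the filter on dim probes only through the TRAF3KO arrays, so its call (adjusted p = 0.0240, at least 6.35-fold higher) is not read as support. That call was lost without each of the TRAF3KO arrays in turn and when blocking on inferred sex. The 9 monocyte and macrophage markers summed to 1864 to 5178 in the controls and 1273 to 2059 in TRAF3KO. Most of that sum was Lyz2 and Adgre1. Lyz2 was called lower (-1.61 ± 0.38, SE, adjusted p = 0.0408), while Adgre1 differed by 0.05 ± 0.17 (adjusted p = 0.924). Of the 7 tested, 1 had a positive difference (median -1.72). C1qc read 5.07, 2.17 and 0 in TRAF3KO and passed the filter on dim probes only through the control arrays. Its call as lower (-5.08 ± 1.24, SE, adjusted p = 0.0472) is therefore not read as support. Without 1 array Lyz2 lost its call in 5 of the 6 fits and C1qc in 4.

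The 10 pan-B cell markers with a probe summed to 299507 to 306552 in the controls and 307308 to 318717 in TRAF3KO, and all 10 were tested, so both groups carried the labelled cell type's markers. Of these, Pou2af1 rose by 0.75 ± 0.08 (SE, adjusted p = 0.000423) and Fcrla fell by 0.32 (SE 0.06, adjusted p = 0.0106). Most of the pan-B cell sum was Cd79a, Cd79b, Blk, Fcrla and Pou2af1, among which only Pou2af1 had a positive difference. The 10 T cell markers summed to 7940 to 8587 in the controls and 5198 to 6549 in TRAF3KO, with Cd8a at the floor throughout. Most of that sum was Cd2, which was called lower (-0.51 ± 0.08, SE, adjusted p = 0.00593). In the controls Cd2 read 12.92, far above Cd3d, Cd3e and Cd3g at 5.55, 4.92 and 5.43. The sum therefore follows Cd2 and is not read as a measure of T cells. Of the 8 T cell markers tested, 4 had a positive difference (median -0.24). Neutrophil and NK cell markers had 0 of 4 tested members called each (0 and 1 at an unadjusted p under 0.05 by limma, 0 and 0 by the linear model), with sums of 174 to 359 and 2518 to 3952 in the controls and 105 to 154 and 2756 to 3334 in TRAF3KO. Plasma cell markers summed to 10868 to 11626 in the controls and 12776 to 13538 in TRAF3KO, with Sdc1 lower (-2.22 ± 0.21, SE, adjusted p = 0.000239) and Xbp1 higher (0.48 ± 0.08, adjusted p = 0.00938). Erythroid markers summed to 76786 to 80113 and 63067 to 77362, with Car2 lower (-1.03 ± 0.23, adjusted p = 0.0330). Most of the plasma cell sum was Xbp1 and Irf4, most of the erythroid sum Hba-a1 and most of the NK cell sum Prf1. Such sums follow these few genes rather than the whole list. Without 1 array Fcrla lost its call in 3 of the 6 fits and Car2 in 5. The part of these shifts in the results for the 6 genes was not tested. In bulk samples such as these, which cells a transcript came from is not known. Fewer cells of a type and less RNA per cell cannot be told apart either.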

How the data were processed

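B cell RNA of 3 control and 3 TRAF3KO mouse spleen samples was hybridised to Illumina bead arrays, with biotin-labelled cRNA made with an Ambion kit, per the labels' protocols. The submitters' processing notes name BeadStudio 3.2.3 but not what it was used for. The values the authors deposited are log2 intensities of 25697 probes, with 8049 to 8065 probes of each array at the floor of 0 and array medians that differ by at most 0.00705. How background, normalisation and detection were handled is not given in the sources used. The number of arrays limits the precision.

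Gene symbols came from the platform annotation (1 symbol for 23141, several for 0, unnamed here 2556). The deposited log2 values were used unchanged. A probe was kept when above the 40th percentile of its array on at least 3 of 6 arrays (15657 probes, 10304 genes, each represented by its brightest kept probe over all 6 arrays). limma 3.58.1 in R 4.3.3 (lmFit, eBayes with a trend) was fitted with group as the only term and with Benjamini-Hochberg adjustment across every kept probe. Where every control array of a called gene was under the 40th percentile, a lower bound against that level (3.96) is given. Ratios of 2 genes were compared by exact permutation. The procedure was tested on simulated data. Promoter windows are RefSeq's (GRCm38.p6).

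The members and lists were chosen with earlier results of these data known. All 6 measured members are described. Of each pathway list, up to 4 called genes with the largest differences are named, or the 2 with the lowest p where none was called. Called marker genes, the 4 nearest tested neighbours on each side of the PD-1 ligand genes and the 2 genes most like each called member are also named. Alternatives were another normalisation, other filters, variance models, array weights, offsets of 16 and 50, low values raised, the mean of probes, the replicate number and inferred sex as blocks, and leaving out each array. Same-numbered arrays of the groups did not deviate together (correlations of 0.04, 0.04 and 0.03), so the numbers were not taken as pairs.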

Additional observations from a re-analysis of the deposited data

How the results depend on the processing

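Quantile normalisation, the filter at the 60th percentile, array weights, the replicate block, offsets of 16 and 50 and low values raised to the 40th percentile left 4 members called higher, and robust eBayes, the mean of a gene's probes and inferred sex as a block left 3. No filter on dim probes, no trend and no moderation of the variance left 0, 0 and 0, with 62, 39 and 25 genes called higher and 52, 26 and 12 lower in all, and 5, 3 and 3 pathway genes called higher and 0, 0 and 0 lower. The cause of these losses was not tested. With inferred sex as a block 9 pathway genes were called higher and 1 lower. With the replicate number as a block the adjusted p was 0.00275 for Cd40, 0.0244 for Cd80, 0.0414 for Cd274 and 0.0383 for Pdcd1lg2, and no call of a member changed. Leaving out each array gave 1 to 5 members called higher and 0 lower. It gave 131 to 211 genes higher and 96 to 171 lower in all, 8 to 10 pathway genes higher and 1 to 2 lower, and 0 to 1 neighbours of the PD-1 ligand genes called (Rcl1, without control replicate 2, adjusted p = 0.0440). Fewer arrays were fitted there. The shift of the Cd80 to Cd86 ratio lay between 1.11 and 1.84 and that of Pdcd1lg2 to Cd274 between 0.13 and 0.44 over the alternatives run for them. Over all 19 alternatives the differences ran from 0.65 to 0.81 for Cd40, 1.05 to 1.74 for Cd80, 0.54 to 0.87 for Cd274, 0.80 to 1.24 for Pdcd1lg2 and 0.24 to 0.41 for Cd83. Of 903 values of 48 named genes, 0 turned their direction in a called gene, 146 lost a call and 6 gained one. An offset of 50, which shrinks differences at low levels, gave the lowest Cd80 difference, 1.05.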
